A study of Mus musculus with 44 samples.

Results

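Germ cells of the fetal ovary were compared with germ cells of the fetal testis at embryonic days (E) 17.5 and 18.5, shortly before birth in the mouse. The female group held 4 arrays, 2 at E17.5 and 2 at E18.5, and the male group held 4 arrays on the same days. These 8 of the study's 44 arrays were taken by the sex and day in their titles. The other arrays held germ cells of other fetal days, male germ cells after birth and 1 sample of embryonic stem cells. The labels call the cells of every age primordial germ cells, purified by fluorescence-activated sorting, and give no treatment, strain, genotype or reporter for them. RNA was hybridised to Illumina MouseRef-8 v2 beadchips. The design text counts 2 biological replicates in each group and elsewhere speaks of biological or technical duplicates. The p-values below rest on the spread between replicates pooled over all 44 arrays. That spread may in part be technical.

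Around birth the mouse ovary holds oocytes at the end of meiotic prophase, which are about to be enclosed in primordial follicles. The testis holds prospermatogonia, also called gonocytes, which have stopped dividing without entering meiosis and rebuild DNA methylation before birth. Transcription factors such as Figla, Lhx8, Nobox and Sohlh1 direct the growth programme of the oocyte, whose stored transcripts later support the embryo. Dnmt3l and the piRNA pathway, which uses small RNAs to silence transposons, act in the methylation of the male germline.

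Levels are given as normalised log2 intensity of 1 probe per gene, and they are not compared between genes. Differences are female minus male on the log2 scale with both days averaged, so a positive value means higher in female germ cells. A gene was called when limma's Benjamini-Hochberg adjusted p was under 0.05 and the difference was at least 2-fold. Where no array of a sex detected the probe used for a gene above background, its averaged difference is given as a lower bound, unless said otherwise. The bound is computed against the lowest level detected on those arrays. X-linked and Y-linked genes were left out of every test.

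The Y-linked genes Eif2s3y and Usp9y were detected on all 4 male arrays and on 0 of the 4 female arrays, the sexes the labels give. Other sex-linked probes gave no separation: those of Kdm5d, Uty and Zfy1 were detected on 0 or 1 female and 0 to 2 male arrays, and of 2 Xist probes 1 was detected, on 1 female and 2 male arrays. The female arrays detected 35.8% to 39.1% of the probes and the male arrays 46.1% to 49.3%. Summed intensity of 5 germ cell markers was 3330 to 4770 on female arrays and 7030 to 7880 on male arrays, and each of the 5 was detected in this material. Of these 5 only Dnd1 was called, lower in female at -2.97, and 4 were not called. Their median difference was -0.384. Markers of 4 somatic cell types were brighter on male arrays as well. Sertoli cell markers summed to 318 to 522 on female and 1890 to 4700 on male arrays, with 6 of 9 tested members lower in female, Fgf9 higher and Gata4 detected on no array. The male sum rested in large part on Clu and Aard. Their male means were 9.61 and 9.27 at E17.5, and 10.30 and 10.48 at E18.5. Endothelial markers summed to 175 to 232 on female and 1990 to 2870 on male arrays, with 4 of 4 tested lower in female and Kdr detected on none. The male sum rested mostly on Egfl7, with male means of 11.10 at E17.5 and 10.76 at E18.5. The male means of Tek, Esam and Tie1 lay between 5.54 and 7.48. Granulosa markers summed to 223 to 281 on female and 720 to 1460 on male arrays, with 5 of 6 tested lower in female, and Bmp2 and Foxl2 detected on none. Mesenchymal markers summed to 369 to 406 on female and 1210 to 1340 on male arrays, with 2 of 5 tested lower in female, and Col1a2 and Tagln detected on none. Erythroid markers summed to 1000 to 2310 on female and 2160 to 8200 on male arrays, with 4 of 6 detected on none and the 1 tested member not called. Steroidogenic markers, of which 4 of 6 were detected on none, summed to 130 to 155 on female and 128 to 321 on male arrays, and macrophage markers to 109 to 131 and 112 to 125 in the same order. With every member at the lowest detected level, the sum would be 438 for Sertoli, 350 for granulosa and mesenchymal, 263 for endothelial and steroidogenic, and 219 for macrophage markers. Female granulosa, endothelial, steroidogenic and macrophage sums and male macrophage sums lay below this and are background. In such sorted bulk samples fewer cells of a type and less RNA per cell cannot be told apart.

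With the 2-fold requirement, nearly as many genes were called between the sexes on these days as were not. Of 9262 autosomal genes tested, 4456 (48.1%) were called, of which 2071 (22.4%) were higher and 2385 (25.8%) lower in female germ cells. Without the 2-fold requirement 3317 were higher and 3754 lower, so a gene not called may still differ. The median difference over all tested genes was -0.108, and under median scaling it was 0.00625, with 1906 genes higher and 1642 lower. The levels of the sexes did not overlap for 5631 genes (60.8%), with all female arrays above the male ones for 2627 (28.4%) and all male arrays above the female ones for 3004 (32.4%). By the probe used, 103 genes (1.11%) were detected on all 4 female and no male arrays, against 1363 (14.7%) on all 4 male and no female arrays. The part of the lower overall detection on female arrays in these counts was not tested. A gene detected in 1 sex alone enters the test through that sex, so the counts of list members below describe these arrays and are read against the percentages above. Each list was also recomputed under 5 other scalings, which were no background correction, a larger offset, cyclic loess, median scaling and the authors' values. Over all genes these gave 1057 to 2445 higher and 1310 to 2993 lower, with medians from -0.174 to 0.00625.

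**Figure D1:**
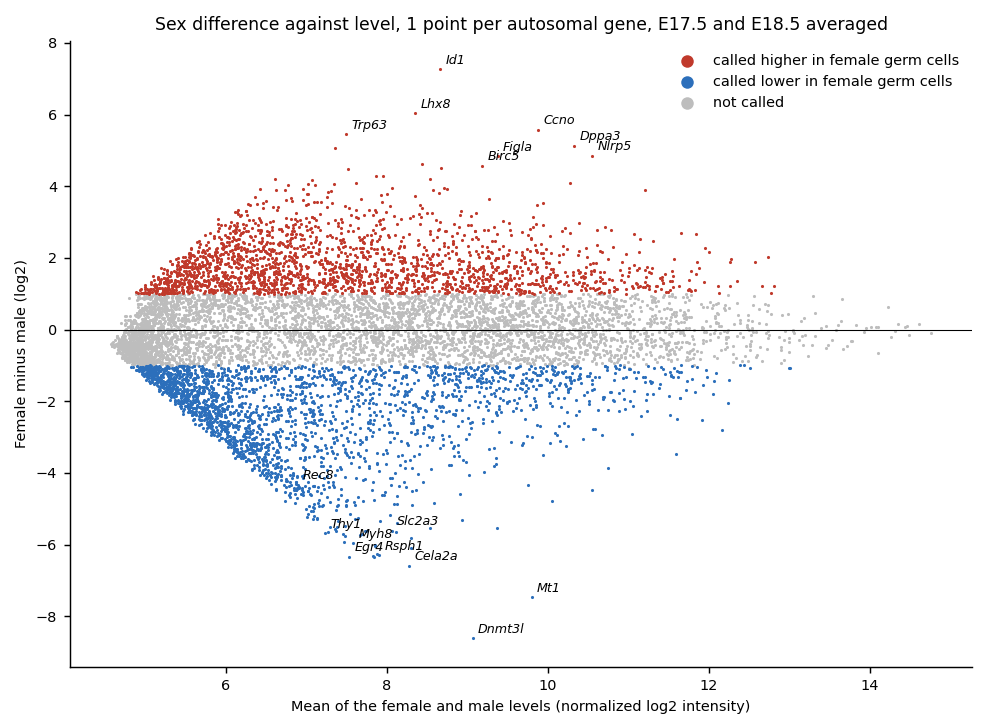
Sex difference (female minus male, log2, y axis) of each of the 9262 autosomal genes against the mean of its female and male levels (normalised log2 intensity, x axis), with the 2071 genes called higher in female in red, the 2385 called lower in blue and the rest in grey. Id1 lies highest at 7.26 and Dnmt3l lowest, and the lower left edge is set by genes at background on the female arrays.

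Transcription factors of the oocyte were higher in female germ cells. Of 7 tested members of the oocyte factor list, 5 were called higher and 0 lower, with a median difference of 1.85. Under the other scalings 2 to 6 were higher, with medians of 0.727 to 2.86, the lowest without background correction. Lhx8, a homeobox factor needed for follicle formation, read 11.26 and 11.34 at E17.5 and 11.34 and 11.53 at E18.5 in female germ cells, against 5.18, 5.29, 5.58 and 5.24 in male germ cells. All 4 female arrays stood far above the male ones, with a difference of 6.04 ± 0.18 (SE; adjusted p = 4.73e-19). Figla, the helix-loop-helix factor that switches on zona pellucida genes, read 11.82, 12.03, 11.61 and 11.71 in female germ cells, against 7.02, 6.69, 7.01 and 7.10 in male germ cells. The sexes did not overlap for Figla either, and the difference was 4.84 ± 0.23 (adjusted p = 1.62e-15). Nobox, another homeobox factor of early follicles, averaged 6.51 ± 0.36 in female and 4.65 ± 0.23 in male germ cells (SD, n = 4 each), a difference of 1.85 with 4 female arrays and 1 male array detecting it. Foxo3, which keeps primordial follicles dormant, averaged 6.36 ± 0.52 in female germ cells. It was detected on 3 female arrays and no male array, and under the main scaling was at least 2.6-fold higher in female (adjusted p = 2.05e-11). Without background correction and with cyclic loess, both Nobox and Foxo3 fell below 2-fold. Sohlh2 was called at 1.01 ± 0.39, but 1 female array lay at 4.45, below every male array (4.56 to 4.95), and the difference missed 2-fold without E17.5 female replicate 2 (0.60) and without E18.5 female replicate 1, E17.5 male replicate 1 or E18.5 male replicate 1 (0.97 to 0.99). Sohlh1, its partner and a factor of both germlines, was bright in both sexes, at 13.75 ± 0.10 in female and 12.82 ± 0.13 in male germ cells, and its difference of 0.93 missed the 2-fold requirement.

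**Figure D2:**
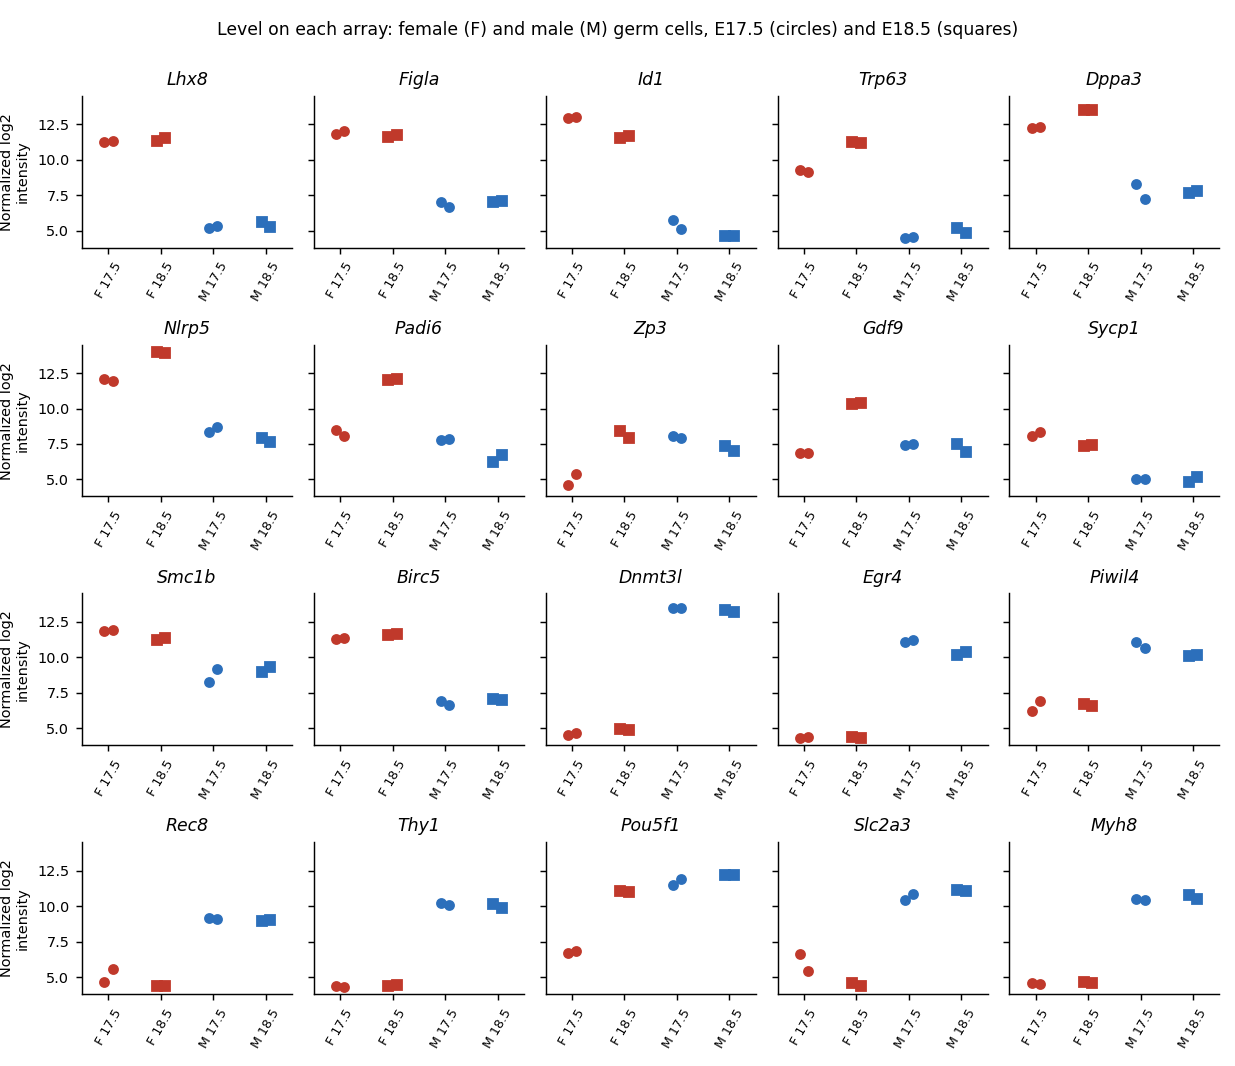
Normalised log2 intensity (y axis) of 20 genes on each array, with female germ cells in red left of male germ cells in blue, circles for E17.5 and squares for E18.5; each point is 1 array. Lhx8, Figla, Id1 and Trp63 are high on all 4 female arrays, and Dnmt3l, Egr4, Thy1 and Myh8 on all 4 male arrays. Among the female arrays Padi6, Zp3, Gdf9 and Pou5f1 are higher at E18.5 than at E17.5, while Pou5f1 is higher still on every male array.

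Transcripts that the oocyte stores for the embryo followed the same direction in most members. Of 18 tested maternal effect and oocyte RNA genes, 13 were higher in female, 1 was lower and 4 were not called, with a median of 1.76 (9 to 13 higher and medians of 1.11 to 2.23 under the other scalings). Dppa3 (Stella), which protects the maternal genome from demethylation after fertilisation, read 12.22 and 12.29 at E17.5 and 13.49 and 13.53 at E18.5 in female germ cells, against 8.31, 7.26, 7.64 and 7.81 in male germ cells. Nlrp5 (Mater), part of the subcortical maternal complex, read 12.08, 11.95, 13.99 and 13.88 in female germ cells, against 8.32, 8.67, 7.90 and 7.63 in male germ cells. Both genes separated the sexes on every array, with differences of 5.13 ± 0.14 for Dppa3 and 4.85 ± 0.17 for Nlrp5 (adjusted p = 1.17e-19 and 7.93e-18). Ybx2 (Msy2), which packages stored mRNA, differed by 3.52 ± 0.11, and Cpeb1, which controls its polyadenylation, by 3.13 ± 0.31. Tcl1 averaged 10.11 ± 0.82 in female and 7.51 ± 0.59 in male germ cells. The member called lower was Kpna7, an importin of the oocyte, at 5.04 ± 0.70 in female and 7.02 ± 0.37 in male germ cells.

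Padi6, which builds the cytoplasmic lattices of the oocyte, changed within the window. It read 8.51 and 8.05 at E17.5 and 11.98 and 12.11 at E18.5 in female germ cells, against 7.78 and 7.87 at E17.5 and 6.24 and 6.74 at E18.5 in male germ cells. The sexes lay close together at E17.5 and were widely separated at E18.5, and the averaged difference was 3.01 ± 0.33 (adjusted p = 8.20e-09). Zp3 and Gdf9, of the list of zona and growth factor genes, also stood higher in female at E18.5 and not at E17.5. At E18.5 Gdf9 differed by 3.14 and Zp1, of the same list, by 2.32, while Zp3 differed by 0.98 and just missed 2-fold. Zp3, the sperm receptor of the zona pellucida, read 4.60 and 5.41 at E17.5 and 8.39 and 7.93 at E18.5 in female germ cells, against 8.09, 7.89, 7.35 and 7.01 in male germ cells. The sexes overlapped for Zp3, which stood lower in female at E17.5 and higher at E18.5 and was called lower on average at -1.0 ± 0.20 (adjusted p = 9.19e-05). Gdf9, a growth factor that oocytes send to granulosa cells, read 6.89, 6.83, 10.29 and 10.39 in female germ cells, against 7.45, 7.53, 7.49 and 6.91 in male germ cells. Of the 4 tested members of this list, Gdf9 and Zp1 were called higher, and Zp3 and Fgf8 lower, with a median of 0.129, which was -0.0127 on the authors' values and 0.0699 to 0.117 under the other scalings, where 1 was higher and 1 lower. Fgf8 was lower in female on both days. No female array detected it, and on average it was at least 4.7-fold lower. The Zp3 call was lost without E17.5 female replicate 1 (-0.80), and without E18.5 female replicate 2, E17.5 male replicate 1 or E18.5 male replicate 1 (-0.89 to -0.95).

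Promoter windows are shown for 5 of these oocyte genes because Figla, a helix-loop-helix factor, binds E-boxes of the kind CANNTG before zona genes. The windows run from 250 bases before to 50 after the gene start in RefSeq's GRCm38.p6 annotation, and the motif CAGGTG, or CACCTG on the other strand, is in capitals. Padi6 lies at chr4:140742594-140742893 on the minus strand, and Khdc3, Btg4, H1f8 and Zp3 lie on the plus strand at chr9:73102148-73102447, chr9:51115751-51116050, chr6:115944681-115944980 and chr5:135979855-135980154. Khdc3 belongs to the subcortical maternal complex, Btg4 triggers decay of maternal mRNA and H1f8 is the linker histone of the oocyte. These 3 were chosen after their values were seen.
Padi6: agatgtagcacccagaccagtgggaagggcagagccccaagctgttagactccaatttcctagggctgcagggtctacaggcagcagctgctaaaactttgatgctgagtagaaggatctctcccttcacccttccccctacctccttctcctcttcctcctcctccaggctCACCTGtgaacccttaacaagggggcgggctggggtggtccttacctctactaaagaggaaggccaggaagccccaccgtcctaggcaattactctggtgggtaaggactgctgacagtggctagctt
Khdc3: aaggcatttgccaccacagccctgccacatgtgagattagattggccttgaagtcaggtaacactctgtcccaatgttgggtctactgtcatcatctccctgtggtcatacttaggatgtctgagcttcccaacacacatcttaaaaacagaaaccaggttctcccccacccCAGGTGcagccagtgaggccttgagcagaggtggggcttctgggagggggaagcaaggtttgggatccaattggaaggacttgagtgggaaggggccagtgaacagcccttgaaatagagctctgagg
Btg4: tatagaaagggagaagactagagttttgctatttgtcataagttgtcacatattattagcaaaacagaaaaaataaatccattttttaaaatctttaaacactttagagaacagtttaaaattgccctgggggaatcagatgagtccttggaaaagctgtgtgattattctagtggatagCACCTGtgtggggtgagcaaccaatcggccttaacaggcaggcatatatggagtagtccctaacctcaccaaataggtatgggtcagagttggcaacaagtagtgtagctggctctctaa
H1f8: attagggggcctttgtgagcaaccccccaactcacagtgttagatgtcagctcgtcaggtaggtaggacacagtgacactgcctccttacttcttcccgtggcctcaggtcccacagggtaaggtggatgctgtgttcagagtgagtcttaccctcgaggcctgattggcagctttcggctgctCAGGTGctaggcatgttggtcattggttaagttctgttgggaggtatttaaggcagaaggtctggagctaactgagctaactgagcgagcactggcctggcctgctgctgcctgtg
Zp3: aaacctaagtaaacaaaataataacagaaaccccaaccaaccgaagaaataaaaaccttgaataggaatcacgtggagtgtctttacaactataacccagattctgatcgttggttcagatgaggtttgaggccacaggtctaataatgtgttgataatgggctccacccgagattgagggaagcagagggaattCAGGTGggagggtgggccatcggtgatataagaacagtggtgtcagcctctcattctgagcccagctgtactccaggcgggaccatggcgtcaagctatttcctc
The windows shown were picked for holding the motif. Its first base lay 78 bases before the start in Padi6 and Khdc3, 70 in Btg4, 66 in H1f8 and 55 in Zp3. Over all 32851 windows 20.2% held it, and over the 7513 tested genes with a window the share was 22.8%, while the general form CANNTG was in 72.3% of all windows. The motif was in 368 of 1737 windowed genes called higher in female (21.2%) and in 491 of 1866 called lower (26.3%). Among the 14 called genes of the maternal list, 10 had a window and 8 of those held the motif. These matches describe letters in a short window and carry no test. Btg4 differed between the sexes by 2.63 at E17.5 and 1.69 at E18.5, while Khdc3 differed by 0.02 and then 1.99 and H1f8 by 0.05 and then 2.33. The averaged Khdc3 difference missed 2-fold without E17.5 female replicate 1, E18.5 female replicate 2, E17.5 male replicate 1 or E18.5 male replicate 1 (0.90 to 0.98).

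Genes of meiotic chromosome structure were mostly higher in female germ cells, with Rec8 as the exception. Of 7 tested axis and synaptonemal complex genes, 5 were higher and 1 lower, with a median of 1.90, and of 15 tested recombination genes 9 were higher and 0 lower, with a median of 1.31. Under the other scalings 3 to 5 axis genes were higher, with medians of 0.703 to 2.76, and 6 to 10 recombination genes, with medians of 0.581 to 1.75. By day, 11 recombination genes were higher and 0 lower at E17.5, and 5 were higher and 2 lower at E18.5. Sycp1, the transverse filament of the synaptonemal complex, read 8.09, 8.33, 7.39 and 7.46 in female germ cells, against 5.06, 5.06, 4.80 and 5.19 in male germ cells, a difference of 2.79 ± 0.24. The meiotic cohesin Smc1b differed by 2.69 ± 0.21 and the axis protein Hormad2 by 2.42 ± 0.20. Prdm9, which marks recombination hotspots, averaged 7.20 ± 0.21 in female and 5.23 ± 0.52 in male germ cells. Mlh3, a crossover nuclease, averaged 9.47 ± 0.27 in female and 7.62 ± 0.07 in male germ cells. Rec8, the meiotic kleisin cohesin, ran the other way at 4.63, 5.54, 4.35 and 4.37 in female germ cells, where no array detected it, against 9.16, 9.06, 8.98 and 9.02 in male germ cells. It was at least 9.6-fold lower in female (adjusted p = 2.16e-14). Spo11, the enzyme of the meiotic double-strand break, was not called at 10.25 in female and 10.62 in male germ cells.

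The single highest difference belonged to Id1, which blocks helix-loop-helix factors and responds to BMP signals. It read 12.92, 13.01, 11.54 and 11.69 in female germ cells, against 5.74, 5.09, 4.63 and 4.64 in male germ cells. The sexes lay far apart on all arrays, with a difference of 7.26 ± 0.16 (adjusted p = 3.08e-21). Only 2 male arrays detected it, so the male level lies partly at background. Its relatives moved the same way, with Id3 at least 10.6-fold and Id2 at least 7.1-fold higher and detected on no male array, and Id4 higher by 1.84 ± 0.22. A second Id2 probe gave 1.20. Of 24 tested genes of BMP, Notch and TGF-beta signalling, 7 were higher and 4 lower in female, with a median of 0.298 (0.111 to 0.478 under the other scalings). The Notch ligand Jag2 was higher by 3.05 ± 0.19 and the receptor Tgfbr1 by 2.02 ± 0.10. The ligand Bmp4 was at least 10.0-fold lower in female, where no array detected it, and the Notch target Hey1 was lower, at -2.27 ± 0.10.

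Trp63, whose protein guards the genome of dormant oocytes, read 9.30 and 9.15 at E17.5 and 11.25 and 11.16 at E18.5 in female germ cells, against 4.46, 4.55, 5.20 and 4.82 in male germ cells. Only 1 male array detected it, and the difference was 5.46 ± 0.27 (adjusted p = 3.14e-15). Of 18 tested apoptosis genes, Trp63 and the survival factor Mcl1 were called higher and 6 genes lower in female, with a median of -0.316 (3 to 8 lower and medians of -0.521 to -0.239 under the other scalings). Mcl1 averaged 10.10 ± 0.19 in female and 7.94 ± 0.19 in male germ cells. Among the lower genes, Bok, a pro-apoptotic relative of Bcl2, was detected on no female array and was at least 6.2-fold lower. Bcl2l2, a survival relative, was lower at -3.92 on the probe used. No female array detected that probe, so this value is no lower bound and its size depends on the female background. A second probe, which 1 female array detected, gave -2.89. Birc5 (survivin), an inhibitor of apoptosis and part of the mitotic passenger complex, averaged 11.47 ± 0.19 in female and 6.90 ± 0.17 in male germ cells, a difference of 4.57 ± 0.13.

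Ccno, a cyclin-like protein expressed in oocytes, averaged 12.66 ± 0.40 in female and 7.09 ± 0.27 in male germ cells. Of 15 tested mitosis genes 7 were higher and 2 lower in female, with a median of 0.923 (5 to 9 higher and medians of 0.398 to 1.70 under the other scalings). Cdk1, the kinase that drives M phase, read 9.89, 9.87, 9.94 and 9.90 in female germ cells, against 6.37, 6.36, 7.19 and 7.02 in male germ cells. Plk1 differed by 2.43 ± 0.17 and the spindle midzone protein Prc1 by 2.12 ± 0.09. The centromeric histone Cenpa and the APC activator Cdc20 were lower, at -1.49 ± 0.12 and -1.25 ± 0.10. Of 21 tested DNA replication genes 8 were higher and 2 lower, with a median of 0.139 (3 to 8 higher and medians of 0.0982 to 0.47 under the other scalings), and the lower pair was the helicase subunit Mcm7 at -2.05 and the cyclin Ccnd1 at -2.40. Of 7 cyclin-dependent kinase inhibitors, Cdkn2d was higher, and Cdkn1c, Cdkn2a and Cdkn2c were lower in female, with a median of -0.638 (-1.10 to -0.207 under the other scalings). The Cdkn2c call was lost without E18.5 female replicate 2 (-0.78), and that of Cdkn2d without E17.5 female replicate 2, E18.5 female replicate 1 or E17.5 male replicate 1 (0.83 to 0.97).

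Dnmt3l, the cofactor of de novo DNA methylation, had the largest deficit in female germ cells. It read 4.55, 4.63, 4.95 and 4.89 in female germ cells, below detection on each array, against 13.47, 13.45, 13.34 and 13.21 in male germ cells. It was at least 190.2-fold lower in female (adjusted p = 6.15e-18). Of 7 tested genes of fetal male germ cells 6 were lower and 0 higher, with a median of -3.78 (5 to 7 lower and medians of -4.40 to -2.62 under the other scalings). Piwil4 (Miwi2), the nuclear partner of piRNAs, averaged 6.61 ± 0.30 in female and 10.48 ± 0.46 in male germ cells. Dnd1, an RNA-binding protein that male germ cells need, averaged 8.26 ± 0.34 in female and 11.23 ± 0.52 in male germ cells. Of 15 tested piRNA pathway genes, 5 were lower and 0 higher, with a median of -0.424, and under median scaling 3 were lower, 2 higher and the median was -0.0597. Under the remaining scalings 2 to 5 were lower, and on the authors' values 2 were higher. Piwil2 and the transposon silencer Mael were not called, at -0.47 and -0.32.

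The rest of the DNA methylation machinery gave a mixed picture, with 1 of 6 tested genes higher and 3 lower in female and a median of -0.57 (1 to 3 lower and medians of -0.634 to -0.126 under the other scalings). Uhrf1, which brings Dnmt1 to replicated DNA, was the higher one, at 11.39 ± 0.07 in female and 8.48 ± 0.51 in male germ cells. The maintenance enzyme Dnmt1 was not called, at 9.31 in female and 9.24 in male germ cells (adjusted p = 0.624). The de novo enzyme Dnmt3b was lower, at -1.04 ± 0.11, and just missed 2-fold without E18.5 female replicate 2, E17.5 male replicate 2 or E18.5 male replicate 1 (-0.98 to -0.99). The probe used for Uhrf2 gave -1.23, but its other 3 probes gave 1.14, -0.72 and 0.93, so its direction depends on the probe. Of 19 tested histone-modifying enzymes 1 was higher, Ehmt1 at 1.35 ± 0.14, and 6 were lower, with a median of -0.27 that was 0.0289 under median scaling. The H3K9 demethylase Kdm3a was lower, at -2.77 ± 0.18, the H3K9 methyltransferase Ehmt2 at -2.01 ± 0.11 and the demethylase Kdm1a at -1.97 ± 0.13.

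Genes known from spermatogonial stem cells and from pluripotent cells were more often lower than higher in female germ cells, and Lin28a, Sall4 and Utf1 are in both lists. Of 18 tested spermatogonial stem cell genes 8 were lower, and 2, Id4 and Elavl2, were higher, with a median of -0.893 (6 to 9 lower and medians of -1.34 to -0.34 under the other scalings). Egr4, a zinc finger factor of male germ cells, read 4.34, 4.41, 4.35 and 4.33 in female germ cells, against 11.09, 11.20, 10.15 and 10.36 in male germ cells. It was detected on no female array and was at least 29.9-fold lower there (adjusted p = 2.45e-16). The surface protein Thy1 was at least 19.4-fold lower and the chromatin factor Utf1 at least 15.8-fold lower, while the zinc finger factor Sall4 averaged 6.28 ± 0.90 in female and 11.59 ± 0.45 in male germ cells. A second Sall4 probe gave -5.32, close to the one used, and another, detected on 3 male arrays and no female array, gave -0.50.

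Of 16 tested pluripotency genes 9 were lower and 1, Tcl1, was higher, with a median of -1.70 (7 to 10 lower and medians of -2.22 to -0.843 under the other scalings). Pou5f1 (Oct4), the central factor of the pluripotency network, read 6.67 and 6.87 at E17.5 and 11.09 and 11.01 at E18.5 in female germ cells, against 11.46, 11.95, 12.19 and 12.23 in male germ cells. Female levels lay below every male array on both days, but by far less at E18.5. Dppa4 averaged 9.85 ± 0.27 in female and 13.34 ± 0.11 in male germ cells. A second Dppa4 probe gave -3.68, and another near background gave -0.43. Nanog and Sox2 were not called, at -0.62 and -0.04. Of 11 tested early germ cell genes 7 were lower and 1, Dppa3, was higher, with a median of -1.09. On the authors' values 8 were lower, with a median of -2.12, but under the remaining scalings only 2 or 3 were, with medians of -0.772 to -0.51. Tfap2c, a factor of germ cell specification, was at least 8.4-fold lower in female, with its other probes at -2.84 and -0.30.

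Enzymes of glycolysis were lower in female germ cells almost throughout. Of 15 tested members 14 were lower and 0 higher, with a median of -3.04 (12 to 15 lower and medians of -3.45 to -1.84 under the other scalings), and the exception Pkm, a pyruvate kinase gene, was not called at -0.87. Slc2a3, a high-affinity glucose transporter, read 6.59, 5.46, 4.57 and 4.37 in female germ cells, against 10.42, 10.84, 11.12 and 11.10 in male germ cells, without overlap (-5.62 ± 0.25, adjusted p = 5.08e-16). Hk2, the hexokinase of the first step, averaged 5.71 ± 0.64 in female and 10.24 ± 0.33 in male germ cells. Ldha, which makes lactate, averaged 7.42 ± 0.38 in female and 11.24 ± 0.21 in male germ cells. Aldoa was lower, at -3.52 ± 0.15 and Pfkl at -3.46 ± 0.24, with a second Pfkl probe near background at -0.30. The Sertoli marker sum of 318 to 522 on female and 1890 to 4700 on male arrays moved the same way, and its part in these values was not tested. Respiratory chain genes did not share this direction, with 7 of 23 tested higher and 0 lower and a median of 0.561, and under median scaling 13 were higher. Ndufa4 averaged 12.78 ± 0.06 in female and 10.91 ± 0.13 in male germ cells, Uqcrc2 averaged 12.36 ± 0.08 and 10.72 ± 0.18 in the same order, and Cox7a2 differed by 2.92 ± 0.25.

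Contractile genes of muscle were also lower in female germ cells, with 15 of 17 tested lower, Tpm1 higher at 1.02 ± 0.27 and a median of -2.49 (11 to 16 lower and medians of -3.32 to -1.23 under the other scalings). The Tpm1 call was lost without E17.5 female replicate 1, E18.5 female replicate 2, or replicate 2 of either male group (0.91 to 0.98). Myh8, the perinatal myosin heavy chain, read 4.62, 4.50, 4.69 and 4.61 in female germ cells, against 10.48, 10.42, 10.80 and 10.53 in male germ cells. No female array detected it, which makes it at least 27.1-fold lower (adjusted p = 4.79e-18). The troponin Tnnc2 was at least 8.8-fold lower and the cardiac myosin Myh6 at least 7.6-fold lower. The smooth muscle actin Acta2 was lower, at -3.83 ± 0.52 on the probe used, and its other 3 probes gave -0.54, -0.81 and -1.30. Mesenchymal markers, Acta2 among them, summed to 369 to 406 on female and 1210 to 1340 on male arrays. The part of mesenchymal cells in the muscle genes was not tested.

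Outside the lists, Mt1, a metallothionein that binds zinc and copper, read 5.93, 6.69, 6.30 and 5.31 in female germ cells, against 13.81, 13.79, 13.23 and 13.29 in male germ cells. Every male array lay far above every female one (-7.47 ± 0.22, adjusted p = 1.87e-19). Cela2a, an elastase, was at least 54.6-fold lower in female and was detected on no female array. Rsph1, a radial spoke protein of cilia and sperm tails, was at least 38.3-fold lower. Mmp2, a matrix metalloprotease, averaged 5.25 ± 0.43 in female and 11.34 ± 0.23 in male germ cells. The endothelial marker Egfl7 was at least 35.1-fold lower in female. Clu and Aard, of the Sertoli marker list, were at least 17.9-fold and 16.9-fold lower. Aard was not particular to the testis in this series, with female means of 9.80 at E12.5 and 9.60 at E13.5. The part of other cell types in these large deficits was not tested.

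Imprinted genes went both ways, with 4 of 16 tested higher and 6 lower in female and a median of -0.736 (6 to 8 lower and medians of -1.32 to -0.314 under the other scalings). Gnas, Snrpn, Ube3a and Igf2r were higher, by 1.59 to 2.24. Phlda2, a growth restrictor of the placenta, was at least 13.7-fold lower in female, where no array detected it, and the signalling adaptor Grb10 averaged 7.65 ± 0.90 in female and 12.45 ± 0.18 in male germ cells. Igf2 was lower, at -1.66 ± 0.30 and Cdkn1c at -1.67 ± 0.20. Of 11 tested retinoic acid pathway genes 7 were lower, Rec8 among them, and 1, the receptor Rxrb, was higher at 2.23 ± 0.11, with a median of -1.51. On the authors' values 9 were lower, with a median of -2.55, and under the remaining scalings 2 to 4 were, with medians of -0.804 to -0.524. Of 13 tested immediate early and heat shock genes 7 were lower and 1, Egr3, was higher, with a median of -1.37 (4 to 7 lower and medians of -1.65 to -0.648 under the other scalings). The Egr3 call was lost without E17.5 female replicate 2, E18.5 female replicate 1, E17.5 male replicate 1 or E18.5 male replicate 2 (0.82 to 0.98). Dusp1, a phosphatase induced by stress, averaged 6.27 ± 1.25 in female and 9.73 ± 0.10 in male germ cells. Of 13 tested genes of PI3K signalling and follicle dormancy 3 were higher and 2, Tsc1 and Mtor, were lower, with a median of 0.168 (1 to 4 higher and medians of 0.0982 to 0.634 under the other scalings).

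**Figure D3:**
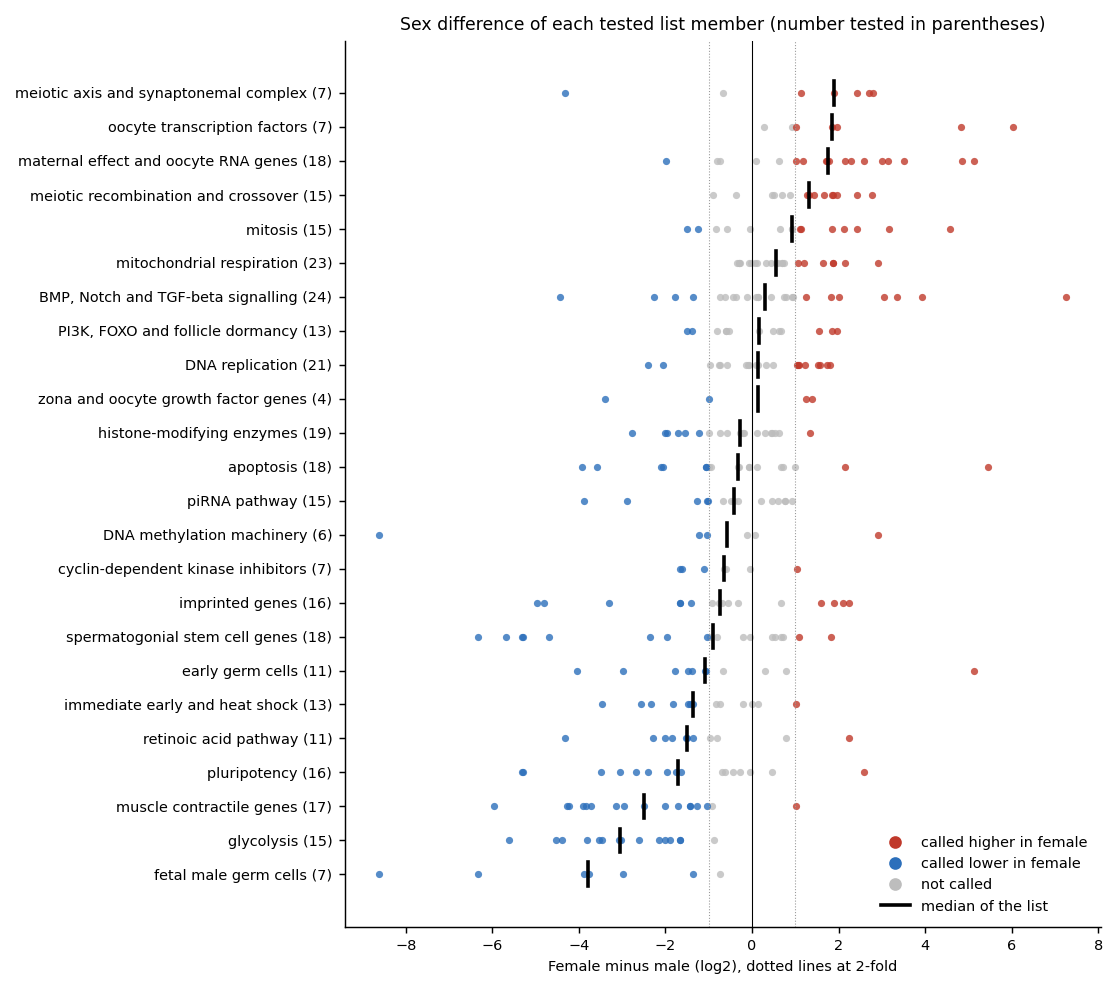
Sex difference (female minus male, log2, x axis) of each tested member of 24 gene lists, ordered by the list's median (black bar), with members called higher in female in red, called lower in blue and not called in grey; dotted lines mark 2-fold. Medians run from 1.90 for the meiotic axis to -3.78 for fetal male germ cell genes, beside -0.108 over all genes.

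The sex difference itself changed between the days for a smaller set of genes. The sex by day test called 1296 genes (14%), with the female minus male difference higher at E18.5 for 605 (6.53%) and lower for 691 (7.46%). On E17.5 alone 4599 genes (49.7%) were called and on E18.5 alone 4523 (48.8%), and 3344 genes (36.1%) were called in the same direction on both. For 26 genes (0.281%) the call was in opposite directions on the 2 days. Padi6 had the largest gain, 5.10 ± 0.65 (adjusted p = 6.07e-06), with female means of 8.28 at E17.5 and 12.05 at E18.5, against male means of 7.83 and 6.49. Gdf9 gained 3.77 ± 0.44 and Zp3 3.97 ± 0.41, and Pou5f1 gained 3.78 ± 0.35. Oas1d, an oocyte member of the oligoadenylate synthetase family, had female means of 5.83 at E17.5 and 9.68 at E18.5, against male means of 6.07 and 5.86. The tubulin Tubb2b gained 4.23 ± 0.37 on the probe used, while its 5 probes differ in averaged sex difference from -1.83 to 0.60.

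Among genes whose difference dropped at E18.5, Gldc, the glycine decarboxylase, had female means of 7.16 at E17.5 and 4.64 at E18.5, against male means of 8.84 and 10.01, a change of -3.69 ± 0.25 (adjusted p = 1.14e-09). The growth arrest gene Gadd45g had female means of 9.49 and 6.86, against male means of 7.83 and 9.21, so that the order of the sexes turned round (-4.01 ± 0.56). Inha, an inhibin subunit also made by Sertoli and granulosa cells, changed by -3.80 ± 0.47. The Sertoli marker sum, which includes Inha itself, was 1890 to 2370 on male arrays at E17.5 and 4640 to 4700 at E18.5. The part of Sertoli cells in the Inha values was not tested. Of the 18 tested maternal genes 7 were higher and 3 lower at E17.5, and 15 were higher and 1 lower at E18.5.

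**Figure D4:**
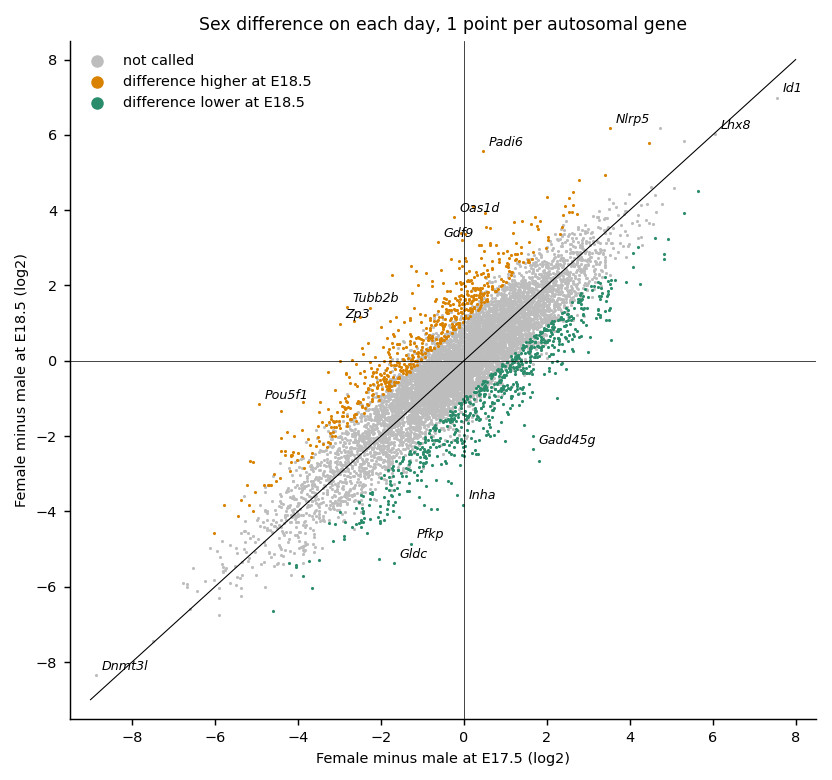
Female minus male difference (log2) of each autosomal gene at E17.5 (x axis) and E18.5 (y axis), with genes whose difference was called higher at E18.5 in orange, called lower in green and not called in grey, and a diagonal line of equal difference. Padi6, Oas1d, Gdf9, Zp3 and Pou5f1 lie above the line, and Gadd45g, Inha, Pfkp and Gldc below it.

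The sex difference was then set against that of germ cells at E14.5 and E15.5. Their 8 arrays had shared the normalisation and the estimate of spread, but entered none of the differences above. The sex difference was larger or smaller for 3421 genes (36.9%), with 1514 (16.3%) higher and 1907 (20.6%) lower at E17.5 and E18.5. Under median scaling 1821 were higher and 1136 lower, so this split depends on the scaling. Of the 2071 genes called higher in female at E17.5 and E18.5, 800 had a difference called higher than at E14.5 and E15.5, 96 one called lower, and 1175 were not called. Of the 2385 genes called lower, 1298 had moved further down, 76 less far, and 1011 were not called. Both sets were chosen by their difference at E17.5 and E18.5, which is also part of this comparison. The lean towards larger differences is therefore partly set by that choice, and no conclusion is drawn from it. For 312 of the higher and 395 of the lower genes the earlier difference had the opposite sign, and for 49 and 90 of them it was at least 2-fold.

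Dppa3 had the largest move, 8.66 ± 0.20 (adjusted p = 1.64e-20). Its female means were 10.15 at E14.5, 6.83 at E15.5, 12.25 at E17.5 and 13.51 at E18.5, against male means of 13.15, 10.89, 7.79 and 7.73. The sexes had therefore exchanged places. Nlrp5 had female means of 4.58 and 5.66 on the earlier days and 12.01 and 13.94 on the later ones, against male means of 7.17 and 7.78, then 8.49 and 7.77. Of the 18 maternal genes the sex difference was called higher for 15 and lower for 1, and their median difference at E14.5 and E15.5 was -2.26. Lhx8 moved by 5.08 ± 0.26, whereas Figla, which already differed by 4.40 on the earlier days, moved by 0.44 and was not called (adjusted p = 0.258). Sohlh1 had female means of 7.26 and 9.40, then 13.67 and 13.83, against male means of 12.06 and 12.65, then 12.82 on both later days.

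Meiotic genes moved the other way. Of the 7 axis genes 0 moved up and 4 moved down, and of the 15 recombination genes 4 moved up and 9 down, with median earlier differences of 2.30 and 2.36. Rec8 had female means of 10.69 at E14.5, 6.58 at E15.5, 5.09 at E17.5 and 4.36 at E18.5, against male means of 7.30, 8.35, 9.11 and 9.0. Prdm9 had differed by 4.67 and moved by -2.70 ± 0.44. Dnmt3l and Egr4, which differed by -7.70 and -6.59 on the earlier days, were not called in this comparison. Glycolysis moved down for 11 of 15 genes and up for 1, and muscle genes moved down for 11 of 17 and up for 1. Phlda2 had female means of 9.97 and 6.73, then 4.48 and 4.73, against male means of 8.28 and 8.82, then 9.86 and 9.30.

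**Figure D5:**
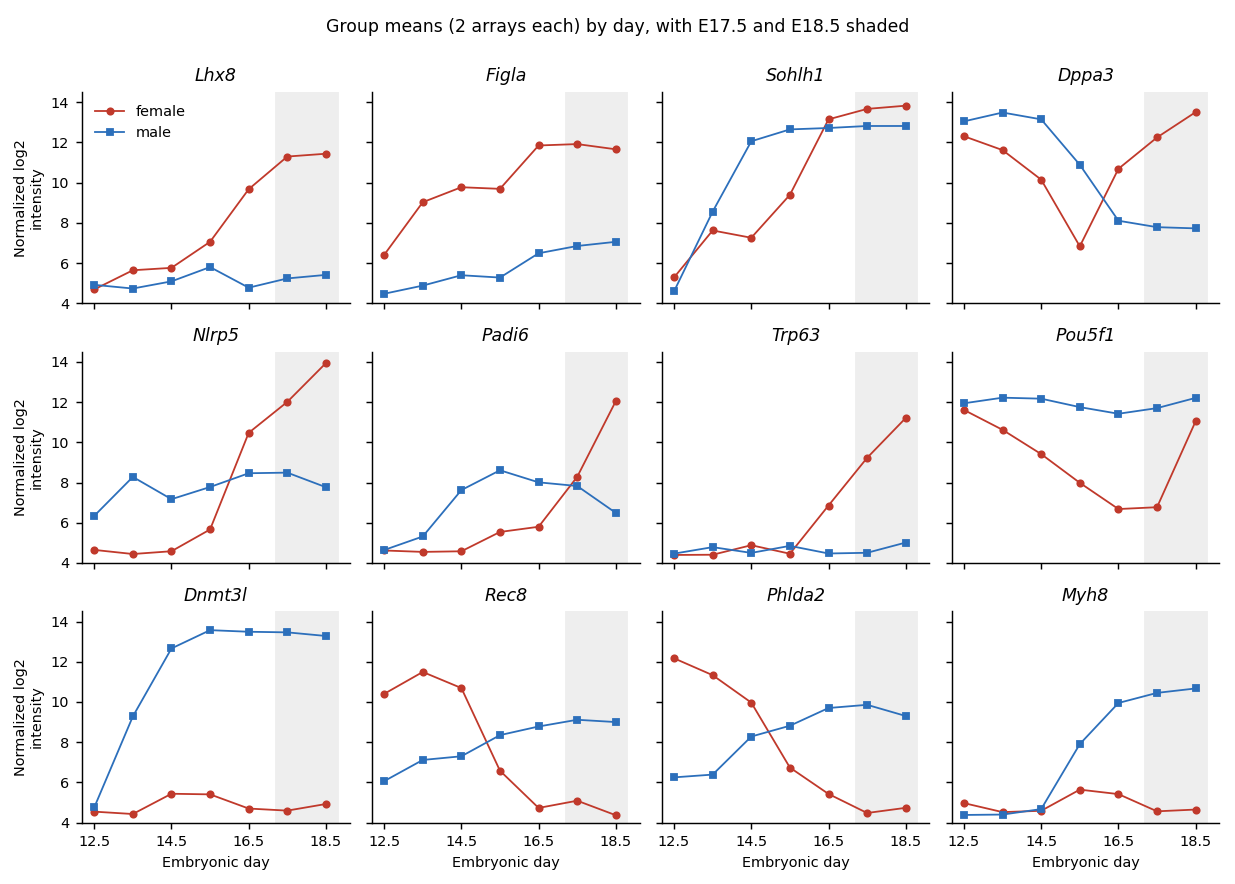
Group means (2 arrays each, normalised log2 intensity, y axis) of 12 genes in female (red circles) and male (blue squares) germ cells from E12.5 to E18.5 (x axis), with E17.5 and E18.5 shaded. Dppa3, Nlrp5 and Padi6 change which sex is higher between E15.5 and the shaded days and Rec8 between E14.5 and E15.5, while Dnmt3l is high in male germ cells from E13.5 on; the E16.5 female arrays, which entered no comparison, detected 24.9% to 25.8% of the probes.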

How the data were processed

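Illumina MouseRef-8 v2 beadchips of sorted germ cells were analysed. The deposited table holds the authors' non-normalised probe intensity and a detection p-value per probe and array, per the file headers. A second deposited table holds the authors' log2 values, used as an alternative. The submitters' processing notes name BeadStudio 3.2, RMA and lumi. Gene names came from the deposited platform annotation, updated through RefSeq: of 25697 probes 23978 carried a single symbol (several: 0, none: 1719), and 23962 matched by gene ID, 9 by accession and 7 not at all. Chromosomes came from the same table.

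In R 4.3.3, limma 3.58.1's neqc (background from detection p-values, offset 16, quantile normalisation over 44 arrays) gave log2 intensities. Named probes detected at p under 0.01 on 2 or more of the 8 arrays were kept (12979, of which 12523 autosomal), with the brightest probe per gene for 2367 genes with several. One model of 23 group means (21 residual degrees of freedom) gave each contrast, with Benjamini-Hochberg adjustment over 9262 genes. On simulated data 96% of differences of 1.5 and 100% of differences of 3 (log2) in the averaged sex comparison were recovered, with 2 unchanged genes called. The offset shrinks differences of dim probes. The number of arrays limits the precision.

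The arrays were assigned by their titles, but the comparisons and gene lists were chosen with earlier results of these data known. Named were the 15 largest called differences each way without overlap between the sexes, up to 6 called members of each list in each direction, the reference genes, up to 6 genes each way in each of the other 2 comparisons, and called cell type markers; only part are printed. Other named genes were chosen after their values were seen: list members that were not called or rank lower (among them Btg4, Khdc3, H1f8, Spo11, Dnmt1, Pkm, Nanog and Sox2). The detection filter, background correction, offset, scaling, the authors' values, filters, probe choice, single arrays left out and a replicate block were tried as alternatives. Promoter windows are RefSeq's (GRCm38.p6).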

Additional observations from a re-analysis of the deposited data

Results flagged for a closer look

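Each of the 4 compared groups held 2 arrays, too few for a test of single arrays that stand apart. The sex difference changed between E17.5 and E18.5 by limma's test of the difference itself, higher at E18.5 for 605 genes and lower for 691, with 26 genes called in opposite directions on the 2 days. By size the largest gains (log2) belonged to Padi6 at 5.10, Tubb2b at 4.23, Oas1d at 4.05, Kyat3 at 4.0, Zp3 at 3.97 and Xdh at 3.89. The largest drops were -4.01 for Gadd45g, -3.80 for Inha, -3.69 for Gldc, -3.67 for BC051142, -3.58 for Pfkp and -3.41 for Rab34. Xdh is a purine oxidase, Pfkp a phosphofructokinase and Kyat3 a transaminase. Against E14.5 and E15.5 the sex difference was higher for 1514 genes and lower for 1907. The largest moves up were Dppa3 at 8.66, Nlrp5 at 7.20, the scaffold protein Pdzk1 at 6.67, Ccno at 6.45, Padi6 at 6.07 and Tcl1 at 5.67. The largest moves down were -6.38 for BC051142, -5.92 for the MHC class II gene H2-Ab1, -5.57 for the homeobox gene Irx3, -5.50 for Lpxn, -5.33 for Nacad and -5.20 for Arap3. Other probes of H2-Ab1, Tubb2b and Gadd45g gave averaged sex differences unlike those used, from -1.63 to -0.59, from -1.83 to 0.60, and at 0.44. Among probes without a gene symbol, which entered no comparison, 16 were detected on all 4 female and no male arrays and 96 on all 4 male and no female arrays.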

How the results depend on the processing

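With 2 arrays per sex and day, precision is limited by their number, and no called gene named in the text changed sign in the averaged difference as long as the same probe was used, while Sox2, Spo11, Dnmt1, Mael and BC051142, none of them called, did. Another probe turned the sign for Uhrf2, which was called, and for Tubb2b and Gadd45g, which were not. Of 126 named genes 97 kept their call, or lack of one, under every alternative on the same probe. Nobox, Sohlh2, Zp1, Zp3, H1f8, Khdc3, Cdkn2c, Cdkn2d, Tpm1 and Egr3 fell below 2-fold without background correction, with cyclic loess, with median scaling and with the compared arrays normalised alone. Foxo3, Prdm9, Id4 and Fgf9 did so in the first pair of these. Higher and lower counts of the averaged sex difference were 1057 and 1310 without background correction, 1227 higher with cyclic loess, and 3317 and 3754 without the 2-fold requirement, beside 2071 and 2385. Without background correction E17.5 gave 1190 and 1359, E18.5 1086 and 1345, the sex by day test 264 and 300, and the comparison with E14.5 and E15.5 698 and 932. Cyclic loess gave 1347 higher at E17.5, 1270 at E18.5 and 848 against E14.5 and E15.5, where no 2-fold requirement gave 2456. Median scaling gave 242 and 322 in the sex by day test and 1136 lower against E14.5 and E15.5, and moved the share of called genes that were higher to 53.7% and 61.6%, beside 46.5% and 44.3% in the averaged and the earlier-day comparison. The cause of these shifts was not tested. Leaving out 1 array gave 2045 to 2084 higher and 2356 to 2395 lower, at E17.5 2031 to 2125 and 2368 to 2406, at E18.5 1986 to 2047 and 2344 to 2368, for sex by day 415 to 702 and 484 to 806, and against E14.5 and E15.5 1457 to 1538 and 1838 to 1942. The sex by day extremes came from leaving out the E17.5 male replicates 1 and 2. Replicate numbers do not pair the samples by their labels, and deviations of same-numbered arrays correlated at 0.0176 to 0.113. Fitting the compared arrays alone gave 2070 higher and 2387 lower in the averaged comparison and 550 and 635 for sex by day, and adding the replicate number as a block to that fit gave 2068 and 2387, and 520 and 591. The block moved no count by over 1.5 times.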
